A study of Mus musculus with 28 samples.

Results

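The odontogenic mesenchyme transcription factors examined here are Msx1, Msx2, Pax9, Barx1, Lhx6, Lhx8, Runx2, Osr2, Prrx1, and Twist1. They were chosen by symbol, all 10 were found among the 52636 genes of the count table, and all 10 passed the filter on low counts that kept 19101 genes. The RNAseq data are from individually handled first molar tooth germs, dissected with little surrounding tissue, of wild type C57BL/6JOlaHsd mouse embryos, an inbred strain, with no treatment in any group. The groups are E13 (bud stage, E13.5 in the labels), E14 (cap stage, E14.5), and E16 (bell stage, E16.5), with 7 teeth each from 7, 6, and 5 embryos. A further 6 teeth of E15 (day 15 in the labels) are in a second table only, and the labels also hold an E15 tooth that is in neither table. The study does not describe these E15 mouse teeth. Their strain, their dissection, and whether they were prepared together with the others are not given there. The question addressed is how the level of each of these genes changes while the molar bud becomes a bell.

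The tooth forms between the oral epithelium and the mesenchyme beneath it, which is derived from the neural crest. At the bud stage the mesenchyme takes over the capacity to instruct tooth formation, and these transcription factors are part of the network through which it answers epithelial signals and keeps up its own Bmp and Fgf signals. Loss of Msx1 or Pax9 arrests the molar at the bud stage in mice, and loss of Runx2 arrests it soon thereafter. Several of the genes are not restricted to tooth mesenchyme: Msx2 is also transcribed in the dental epithelium, and Runx2, Twist1, and Prrx1 in the surrounding jaw mesenchyme.

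From bud (E13) to bell (E16), 5 of the 10 genes fell, namely Msx1, Pax9, Lhx8, Prrx1, and Twist1, and 2 rose, namely Msx2 and Runx2. Of all 19101 tested genes, 41.3% passed the test in this comparison, 21.6% higher and 19.6% lower. Msx2 was 13.4-fold higher at E16, and Prrx1 was at 0.344 and Lhx8 at 0.339 of the E13 level. In the fit of all 3 stages together, Lhx6 and Osr2 did not pass the test in any of the 3 comparisons. Barx1 passed it from E14 to E16 with an adjusted p of 0.0479 in the quasi-likelihood test of edgeR. All levels are counts divided by the size factor of the library, and they are not comparable between genes unless given per kilobase.

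For 4 of the 5 genes that fell from E13 to E16, RefSeq holds an upstream sequence that begins outside the GENCODE gene, and these are shown because all 4 were lower at E16 than at E13, though at different steps. Coordinates are on GRCm38, sequences are from RefSeq (GRCm38.p6) and read 5′ to 3′ on the strand of the gene up to the start of the RefSeq transcript or of the GENCODE gene, whichever comes first, and the capitals mark each CG dinucleotide.
Msx1, chr5:37824586-37824835, minus strand: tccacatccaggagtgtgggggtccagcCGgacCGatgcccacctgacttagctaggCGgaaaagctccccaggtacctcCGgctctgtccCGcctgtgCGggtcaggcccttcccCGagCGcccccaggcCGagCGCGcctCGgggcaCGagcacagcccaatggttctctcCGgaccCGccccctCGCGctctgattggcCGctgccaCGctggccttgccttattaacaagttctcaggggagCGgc
Lhx8, chr3:154330660-154330810, minus strand: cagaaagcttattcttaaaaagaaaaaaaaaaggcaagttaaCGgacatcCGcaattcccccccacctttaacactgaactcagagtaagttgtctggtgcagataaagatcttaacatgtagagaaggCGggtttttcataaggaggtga
Prrx1, chr1:163313711-163313900, minus strand: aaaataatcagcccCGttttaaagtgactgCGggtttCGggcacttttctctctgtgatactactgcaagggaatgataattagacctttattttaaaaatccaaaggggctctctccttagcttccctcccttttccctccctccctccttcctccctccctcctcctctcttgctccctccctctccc
Twist1, chr12:33957421-33957670, plus strand: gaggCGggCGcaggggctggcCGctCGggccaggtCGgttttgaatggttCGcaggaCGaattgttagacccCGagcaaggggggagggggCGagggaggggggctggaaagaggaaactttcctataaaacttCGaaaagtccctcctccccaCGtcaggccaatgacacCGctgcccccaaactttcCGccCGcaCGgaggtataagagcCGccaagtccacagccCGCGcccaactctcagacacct
For Pax9, the RefSeq start lies within the GENCODE gene and no sequence is shown.

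In the full 250 bases before the RefSeq start, the Msx1 sequence held 20 CG dinucleotides at a GC content of 68%, and the Twist1 sequence 18 at 62.4%. The Lhx8 and Prrx1 sequences held 4 each, at 46% and 47.6% GC. The median over all 32851 mouse promoters in the set was 6 CG dinucleotides and 52.4% GC, so that genes lower at E16 than at E13 lay on both sides of it. Msx2, which rose, resembled Msx1 with 16 CG dinucleotides and 61.6% GC. For context, 4 short motifs were searched on both strands, where CANNTG is the letters of an E-box, TGTGGT those of a Runt site, CAATTA a homeodomain core, and TATAAA the TATA box. In this order they were found in 66.2%, 14%, 7.17%, and 12.4% of all promoters. Msx1, Msx2, Pax9, and Runx2 held 1 CANNTG each, Runx2 also 1 TGTGGT, and Twist1 1 TATAAA, whereas Lhx8, Prrx1, and Barx1 held no match to any of the 4. Lhx6 has 3 RefSeq starts, of which the outermost held 2 matches to CANNTG and the innermost 1 to CAATTA. These matches are letters in a window, not known sites. Osr2 was not in the set.

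The libraries held 19187478 to 24109057 counts at E13, 23210069 to 25711785 at E14, and 17814073 to 27115729 at E16. The left tooth of embryo 3 at E16 stood apart from the rest, with the smallest total. In it, 8 of the 10 transcription factors were below all 6 other E16 teeth, and the exceptions were Lhx8 and Prrx1. Of all 19101 tested genes, 37.2% were below and 32.8% above the range of the other 6 teeth. All 6 pan-mesenchyme markers (Vim, Pdgfra, Pdgfrb, Cdh11, Col3a1, Col5a1) and 6 of 9 dental epithelium markers were below it also. In the sums of normalized counts over the marker lists, this tooth had 42939 for pan-mesenchyme against a median of 120219 over the 7 E16 teeth, and 64054 for dental epithelium against a median of 102522. Whether the library or the tooth sets it apart was not tested, and results at E16 are given with and without it where it matters.

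Markers of both tissue layers were present in each library. The pan-mesenchyme sum had medians of 98637 at E13 and 107129 at E14. None of its 6 genes passed the test from E13 to E14, and from E14 to E16 1 rose (Col3a1) and 2 fell (Pdgfrb, Cdh11). From E13 to E16, Col3a1 was higher and Pdgfra lower. The E13 and E14 ranges of 3 of the 6 (Vim, Pdgfra, Pdgfrb) did not overlap, against 9.92% of all tested genes. The test from E13 to E14 shares its estimate of the spread with E16, where the left tooth of embryo 3 was low in all 6. The dental epithelium sum (Krt5, Krt14, Krt15, Epcam, Cdh1, Trp63, Esrp1, Perp, Dsp) had medians of 29532, 50513, and 102522 with non-overlapping ranges, and all 9 genes rose in all 3 comparisons. In whole teeth, fewer mesenchymal cells among more epithelial cells cannot be told apart from less RNA of a gene per mesenchymal cell. The mature matrix genes Dspp and Amelx had means below 10 normalized counts at all stages. The cartilage sum had medians of 3648, 1509, and 512, most of it Col2a1 (means 3550, 1771, and 414). From E13 to E16, Col2a1 and Col9a1 fell, and Acan rose from a mean of 7.87 to 50.9. Matn1 and Comp had means below 10 normalized counts at all stages. Of the E13 teeth, 1 had a skeletal muscle sum of 27780.3 against a median of 920.3. The endothelial sum had medians of 6426, 7416.5, and 8702, the immune sum of 658, 1170.3, and 1768, the Schwann cell sum of 1236, 1289, and 1669.6, and the red cell sum of 6628, 3558, and 1156.5. The osteoblast sum had medians of 11472.5, 10094, and 17843, with Bglap below 10 at E13 and E16. The part of these cell types in the changes below was not tested.

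The gene levels in each tooth are shown by stage, with the deviating E16 tooth drawn as an open diamond.

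**Figure D1:**
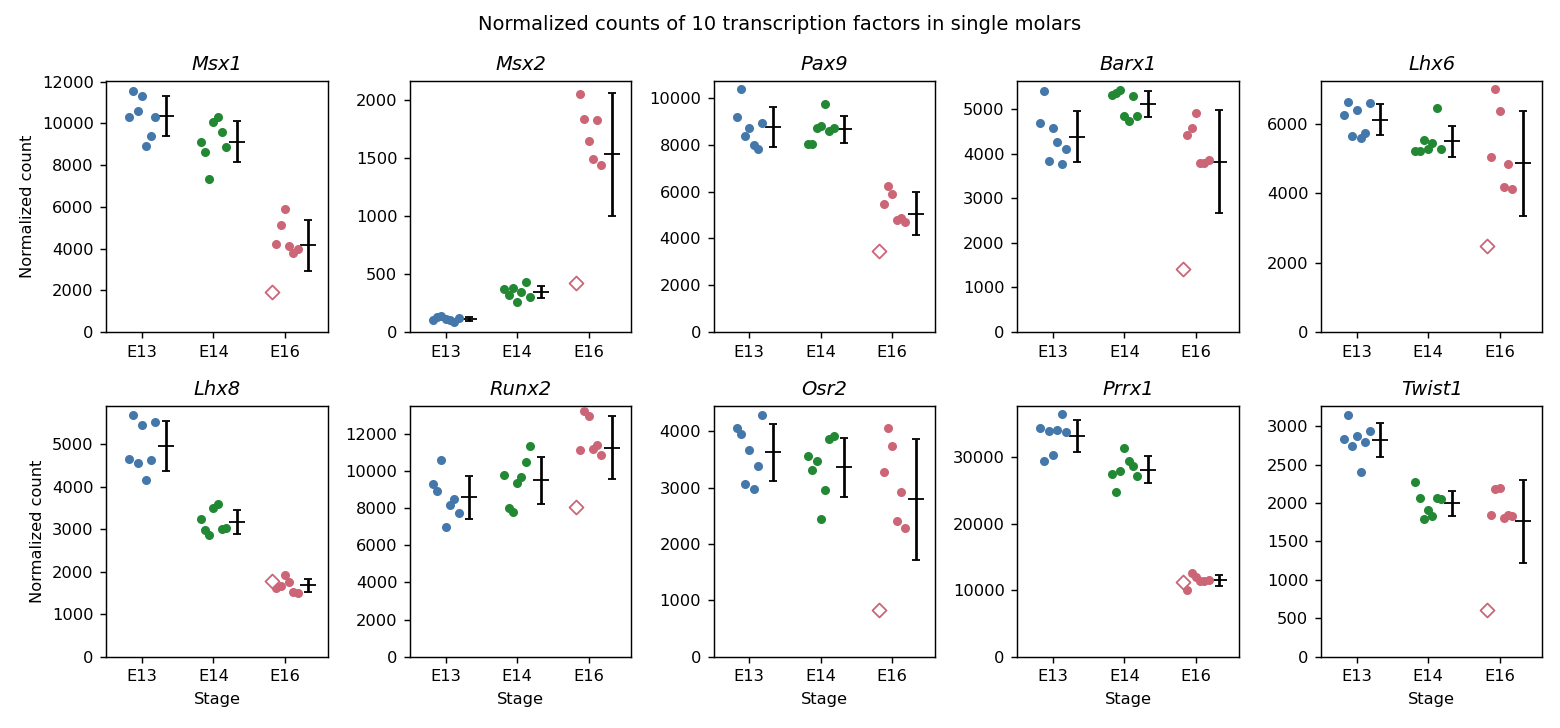
Normalized counts (y axis, linear from 0) of the 10 transcription factors in single molars at E13, E14, and E16 (x axis, 7 teeth each). Filled points are teeth, the open diamond is the left tooth of embryo 3 at E16, and black bars are the mean ± SD of all 7 teeth. Msx2 climbs from 88.3 to 138 at E13 to as much as 2048 at E16, and Prrx1 and Lhx8 step down. The diamond is the lowest E16 tooth in all panels but those of Lhx8 and Prrx1.

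The adjusted p values below are from the quasi-likelihood test of edgeR over all 19101 genes, and the changes are log2 fold changes ± SE between 7 teeth of each stage. Teeth of the same embryo entered as separate samples.

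Msx1 and Msx2 are closely related homeodomain proteins that act mostly as repressors. In the tooth, Msx1 maintains the mesenchymal Bmp4 signal, and Msx2 has later functions in cusps and enamel. Msx1 (ENSMUSG00000048450, chromosome 5, 37820485 to 37824583, minus strand) had a lowest, median, and highest normalized count of 8920.5, 10326.5, and 11549 at E13. At E14 these were 7359.9, 9088, and 10289, and at E16 1909, 4122, and 5900.0. The E13 and E14 teeth overlapped, and all E16 teeth were below both. The change was −0.18 ± 0.15 from E13 to E14 (adjusted p = 0.411), followed by a fall of −1.14 ± 0.15 from E14 to E16 (adjusted p = 1.92e-06). Without the deviating tooth this fall was −1.0002 ± 0.0927 (adjusted p = 4.91e-09).

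Msx2 (ENSMUSG00000021469, chromosome 13, 53466884 to 53473074, minus strand) went the other way at both steps. Its lowest, median, and highest normalized counts were 88.3, 110.5, and 138 at E13, and 264, 345, and 429.5 at E14. At E16 they were 422, 1651, and 2048, and the lowest of these was the deviating tooth, whereas the other 6 E16 teeth had at least 1443. E13 and E14 did not overlap, and E14 and E16 overlapped only through that tooth. Msx2 rose by 1.60 ± 0.22 from E13 to E14 (adjusted p = 9.63e-06) and by 2.15 ± 0.21 from E14 to E16 (adjusted p = 2.39e-08), or by 2.33 ± 0.11 without the deviating tooth (adjusted p = 3.58e-14). Over both steps the rise was 3.75 ± 0.23 (adjusted p = 2.23e-12). The dental epithelium markers, which include no gene of this group, rose over the same steps by medians of 0.62 and 0.94.

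Pax9 is a paired box factor that acts together with Msx1 upstream of Bmp4 in the bud mesenchyme. Pax9 (ENSMUSG00000001497, chromosome 12, 56691767 to 56712822, plus strand) had normalized counts of 7822, 8717, and 10376 (lowest, median, highest) at E13 and of 8012, 8704, and 9751 at E14. At E16 these were 3462, 4881, and 6252. The levels at E13 and E14 overlapped almost fully, and all E16 teeth were below them. The change was −0.02 ± 0.10 from E13 to E14 (adjusted p = 0.91) and −0.78 ± 0.10 from E14 to E16 (adjusted p = 9.99e-07). As for Msx1, only the second of these steps passed the test. Slc25a21 shares 189 exon bases with Pax9 on the opposite strand and had means of only 48.4, 85.4, and 54.6 normalized counts.

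Barx1 is a homeobox factor of the proximal jaw mesenchyme, where molars and not incisors form. Barx1 (ENSMUSG00000021381, chromosome 13, 48662998 to 48666507, plus strand) had normalized counts of 3757, 4268, and 5402 (lowest, median, highest) at E13, 4729.8, 5289.9, and 5422.5 at E14, and 1412, 3860.0, and 4899 at E16. The stages overlapped, and the lowest E16 value was again the deviating tooth, the others being at 3779 or more. The changes were 0.22 ± 0.16 (adjusted p = 0.35) and −0.43 ± 0.16 (adjusted p = 0.0479). Without that tooth the second change was −0.27 ± 0.08, with an adjusted p of 0.00763. The call was nevertheless lost in 11 of the other 13 fits that left out a single tooth.

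Lhx6 and Lhx8 are LIM homeodomain factors of the oral side of the jaw mesenchyme, induced by epithelial Fgf8, and molars are missing when both are lost. Lhx8 (ENSMUSG00000096225, chromosome 3, 154306294 to 154330659, minus strand) had normalized counts of 4152, 4657, and 5691 (lowest, median, highest) at E13, 2851, 3016, and 3593 at E14, and 1509, 1666, and 1920.3 at E16. No stage overlapped with another, and the deviating tooth, at 1782, was within the range of the other E16 teeth. Lhx8 fell by 0.64 ± 0.08 on the log2 scale from E13 to E14 (adjusted p = 2.22e-06) and by 0.92 ± 0.08 from E14 to E16 (adjusted p = 3.78e-09). It was the only gene of the group whose ranges were separate in all 3 comparisons.

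Lhx6 (ENSMUSG00000026890, chromosome 2, 36081953 to 36105408, minus strand) had normalized counts of 5579, 6243, and 6618 (lowest, median, highest) at E13, 5229.7, 5285, and 6454.5 at E14, and 2474, 4838, and 7008 at E16. The E16 teeth spanned those of both earlier stages. The change from E13 to E16 was −0.34 ± 0.14 (adjusted p = 0.0548), and −0.21 ± 0.10 without the deviating tooth (adjusted p = 0.0718). Both right and left tooth of embryo 6 were high at E16 (7008 and 6364), and leaving out either of them gave an adjusted p of 0.0105 or 0.0259.

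Runx2 and Twist1 are often considered together, because Twist1, a basic helix-loop-helix factor of the neural crest mesenchyme, can hold back Runx2, the Runt domain factor required for bone and for tooth development past the bud. Runx2 (ENSMUSG00000039153, chromosome 17, 44495987 to 44814797, minus strand) had normalized counts of 6962, 8496, and 10561 (lowest, median, highest) at E13, 7799, 9660.3, and 11351 at E14, and 8054, 11189, and 13198 at E16. All stages overlapped, with the lowest E16 value in the deviating tooth. Runx2 rose by 0.38 ± 0.11 from E13 to E16 (adjusted p = 0.00549), and neither step alone passed the test (0.14 ± 0.11, adjusted p = 0.378, and 0.24 ± 0.11, adjusted p = 0.0957). Without the deviating tooth the second step was 0.32 ± 0.09 with an adjusted p of 0.00606. Runx2os1 shares 519 exon bases with Runx2 on the opposite strand and had means of 69.2, 65.2, and 41.8.

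Twist1 (ENSMUSG00000035799, chromosome 12, 33957671 to 33959829, plus strand) had normalized counts of 2407, 2826, and 3139 (lowest, median, highest) at E13, 1797, 2049, and 2269 at E14, and 608, 1848.5, and 2201 at E16. The E13 teeth were above all others, whereas E14 and E16 overlapped. It fell at the first step (−0.50 ± 0.16, adjusted p = 0.0304), and the change thereafter was −0.19 ± 0.16 (adjusted p = 0.426). Without the deviating tooth the latter was −0.02 ± 0.07 (adjusted p = 0.845), and the fall from E13 to E16 was −0.52 ± 0.07 (adjusted p = 4.37e-07). The first fall was near the threshold, and it missed it when the teeth of an embryo were summed (adjusted p = 0.0531).

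Osr2 is an odd-skipped zinc finger factor that is graded from lingual to buccal and keeps the molars in a single row by limiting Msx1-dependent Bmp4. Osr2 (ENSMUSG00000022330, chromosome 15, 35296098 to 35303305, plus strand) had normalized counts of 2981, 3674, and 4286 (lowest, median, highest) at E13, 2441.5, 3471.5, and 3919 at E14, and 836, 2920.5, and 4058 at E16. The stages overlapped throughout, and at E16 Osr2 was the most variable of the 10 genes (coefficient of variation 38.7%, or 22.8% without the deviating tooth). The changes were −0.11 ± 0.20 (adjusted p = 0.752) and −0.27 ± 0.20 (adjusted p = 0.347).

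Prrx1 is a paired-related homeobox factor of cranial and limb mesenchyme that acts together with Prrx2 in the lower jaw. Prrx1 (ENSMUSG00000026586, chromosome 1, 163245119 to 163313710, minus strand) had normalized counts of 29407, 33904, and 36376 (lowest, median, highest) at E13, 24772, 27889.9, and 31278 at E14, and 10028, 11435, and 12636 at E16. E13 and E14 overlapped and E16 was far below both, with the least spread between teeth of the 10 genes at that stage (coefficient of variation 6.93%). Prrx1 fell by 0.24 ± 0.07 on the log2 scale at the first step (adjusted p = 0.0213) and by 1.30 ± 0.07 at the second (adjusted p = 2.73e-12). The first fall missed the threshold without the right tooth of embryo 9 at E13 (−0.22, adjusted p = 0.0509). Scaled to the pan-mesenchyme markers it was larger but less certain (−0.38 ± 0.17, adjusted p = 0.189). Gm26523 and Gm37644, annotated on the same strand within its introns, had means of 1837 and 2715 normalized counts at E13, 1545 and 2038 at E14, and 711 and 952 at E16. Their reads cannot be told apart from unspliced Prrx1 RNA.

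The changes in the 3 comparisons are plotted with their standard errors.

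**Figure D2:**
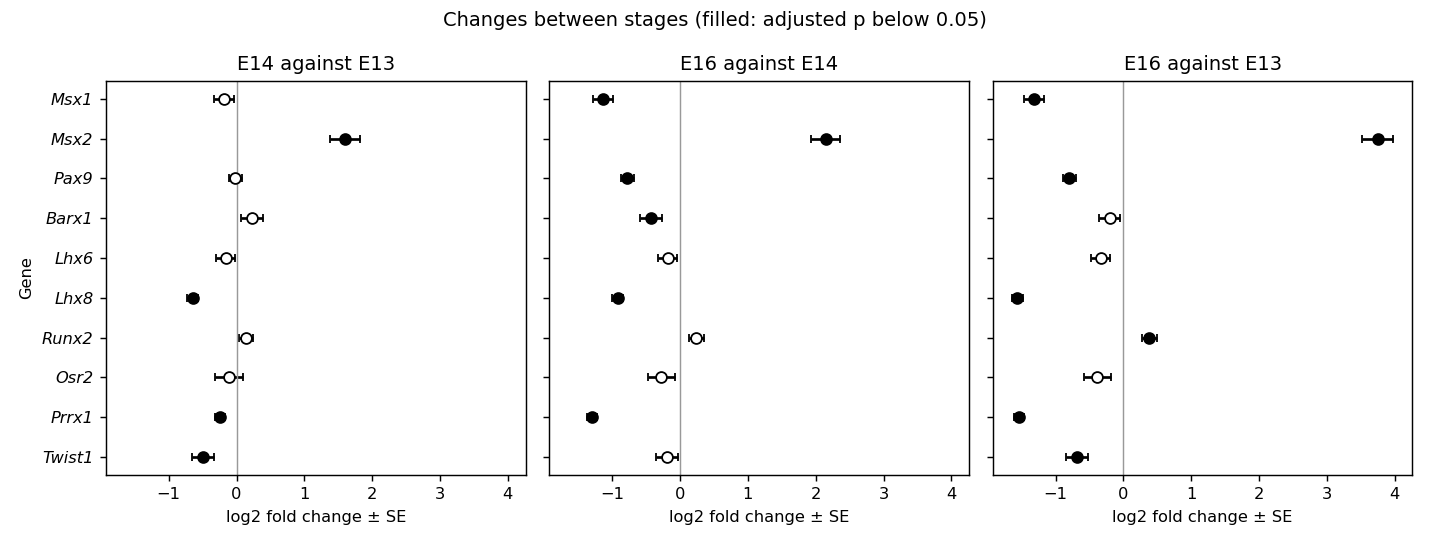
Log2 fold changes ± SE (x axis) of the 10 transcription factors (y axis) for E14 against E13, E16 against E14, and E16 against E13, from the edgeR fit over 21 teeth. Filled circles have an adjusted p below 0.05. Msx2 is to the right in every panel (1.60, 2.15, and 3.75), Lhx8 and Prrx1 are to the left in every panel, and Msx1 and Pax9 are filled only in the panels with E16.

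By counts, 4 of the 10 genes passed the test from E13 to E14, 1 higher and 3 lower, where 19.7% of all tested genes passed it, 11.3% higher and 8.47% lower. The ranges of 3 of the 10 did not overlap in this comparison, against 9.92% of all tested genes. From E14 to E16, 6 passed the test, 1 higher and 5 lower, against 28.1% of all tested genes, 15% higher and 13.1% lower. In this comparison 4 of the 10 did not overlap, against 10.8%. From E13 to E16, 7 passed, 2 higher and 5 lower, against 41.3%, 21.6% higher and 19.6% lower, and 6 did not overlap, against 18.7%. The median log2 change of the 10 genes was −0.13, −0.35, and −0.53 in the 3 comparisons, and that of all tested genes −0.01, 0.00, and −0.01. Without the deviating tooth, 7 genes passed from E14 to E16 and 7 from E13 to E16.

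Scaling the libraries to the 6 pan-mesenchyme markers, which sets the genes against a mesenchymal reference within each tooth, shifted the median of all tested genes by −0.14, 0.35, and 0.21 in the 3 comparisons. With it, 88.5% of the genes called from E14 to E16 were higher, against 53.4% before, and 76.4% of those called from E13 to E16, against 52.4%. The deviating tooth, low in all 6 of these markers, weighs heavily on this scale. With it left out, marker scaling shifted the median of all genes by only 0.07 from E14 to E16 and by −0.07 from E13 to E16, and 68.2% and 43.4% of the called genes were higher. With all teeth on this scale, Msx1, Pax9, Lhx8, and Prrx1 still fell from E14 to E16 (−0.92 ± 0.10, −0.49 ± 0.12, −0.53 ± 0.19, and −0.93 ± 0.18, with adjusted p of 6.47e-07, 0.00437, 0.0404, and 0.000377). Msx2 still rose (2.32 ± 0.15, adjusted p = 1.82e-10), and Runx2 passed the test (0.54 ± 0.13, adjusted p = 0.00476). The small differences of Lhx6 and Twist1 between E14 and E16, which had not passed the test, turned to 0.06 and 0.00. Without the deviating tooth, the falls on this scale were −0.94 ± 0.09 for Msx1, −0.62 ± 0.08 for Pax9, −0.85 ± 0.07 for Lhx8, and −1.21 ± 0.07 for Prrx1 (adjusted p = 8.95e-09, 4.24e-07, 7.7e-10, and 1.87e-12), and Runx2 rose by 0.39 ± 0.09 (adjusted p = 0.00107).

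Ratios of 2 genes within a tooth hardly depend on how libraries are scaled. For this, 5 pairs of related or interacting factors were compared, each at 3 comparisons, with two-sided exact permutation tests that go through every way to divide 14 teeth into groups of 7. The p values were adjusted over the 15 tests, and the smallest unadjusted p that these divisions can give is 0.000583.

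The ratio of Msx1 to Msx2 counts fell most. In the lowest, median, and highest tooth it was 76.9, 89.8, and 106 at E13, 19.5, 26.9, and 38.1 at E14, and 2.06, 2.77, and 4.52 at E16. No tooth overlapped with another stage, and the deviating tooth (4.52) was the highest at E16 and still below all E14 teeth. The mean log2 ratio changed by −1.78 at the first step and by −3.23 at the second (exact permutation test, adjusted p = 0.000874 for both).

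The ratio of Lhx6 to Lhx8 rose with median values of 1.24, 1.75, and 3.14. The E16 teeth ranged from 1.39 to 4.21, with the deviating tooth lowest and below every E14 tooth (1.51 to 2.15). The mean log2 difference was 0.48 from E13 to E14 (exact permutation test, adjusted p = 0.000874) and 0.67 from E14 to E16 (exact permutation test, adjusted p = 0.0101), or 0.84 without the deviating tooth. In the mean, Lhx8 thus fell relative to Lhx6 at both steps, though the deviating tooth went the other way at the second.

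The ratio of Runx2 to Twist1 had medians of 3.04, 4.92, and 6.05, with no overlap between stages. Of the E16 teeth, 6 lay close together (lowest 5.88), and the deviating tooth had 13.2. The log2 difference was 0.64 at the first step and 0.51 at the second, or 0.35 without that tooth (exact permutation tests, adjusted p = 0.000874, 0.000874, and 0.0013).

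The ratio of Msx1 to Osr2 had medians of 2.92, 2.55, and 1.57. It did not pass the test from E13 to E14 (log2 difference −0.07, exact permutation test, adjusted p = 0.645) and fell from E14 to E16 (−0.81, exact permutation test, adjusted p = 0.00238). The ratio of Msx1 to Pax9, with medians of 1.16, 1.08, and 0.823, changed by −0.17 and −0.40 (exact permutation tests, adjusted p = 0.0131 and 0.00364).

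**Figure D3:**
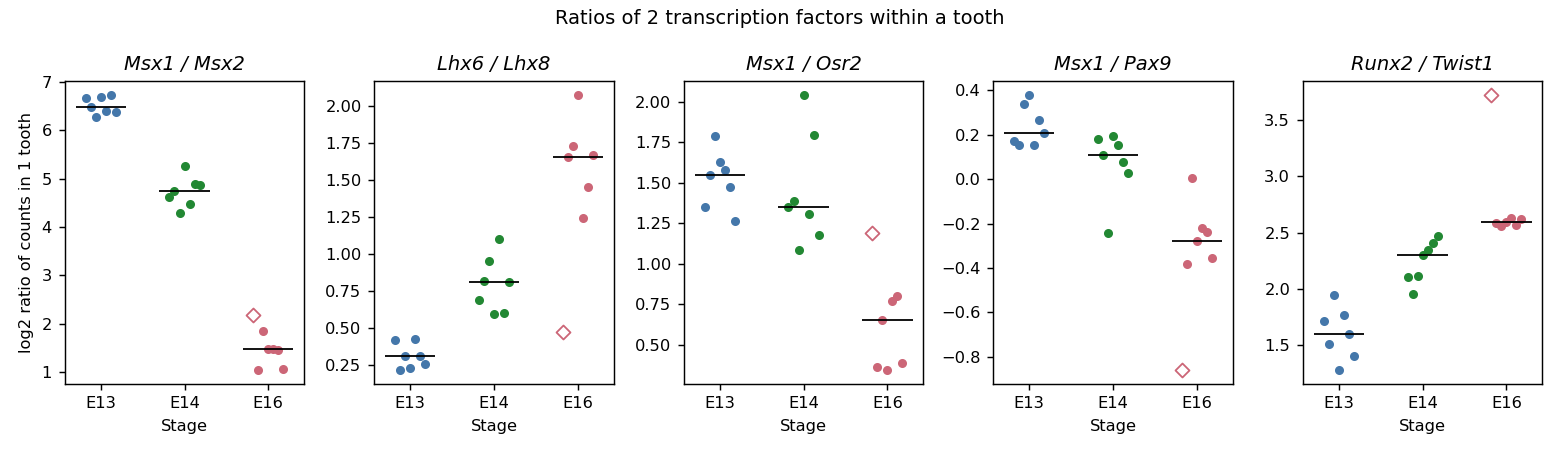
Log2 ratio of the counts of 2 transcription factors in the same tooth (y axis, a separate scale in each panel) at E13, E14, and E16 (x axis, 7 teeth each). Points are teeth, the open diamond is the left tooth of embryo 3 at E16, and lines are medians. Msx1 over Msx2 drops stepwise from a median count ratio of 89.8 to 2.77, Lhx6 over Lhx8 and Runx2 over Twist1 climb, and Msx1 over Pax9 goes from a median count ratio of 1.16 to 0.823.

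To compare the genes with each other, levels were divided by the merged exon length. At E13 the order in normalized counts per kilobase was Msx1 (3342 ± 307, SD, n = 7), Barx1 (3127 ± 408), Prrx1 (2995 ± 220), Lhx8 (1954 ± 234), Pax9 (1735 ± 169), Twist1 (1731 ± 136), Lhx6 (1274 ± 93.7), Osr2 (1002 ± 139), Runx2 (972.5 ± 131), and Msx2 (34.6 ± 5.24). Of neighbours in this order, the teeth of Prrx1 and Lhx8, of Twist1 and Lhx6, and of Runx2 and Msx2 did not overlap, and all other neighbours did. At E14 Barx1 was first (3655.5 ± 211) and did not overlap with Msx1 (2946.5 ± 319). The order continued with Prrx1 (2538 ± 182), Pax9 (1712 ± 115), Lhx8 (1252 ± 113), Twist1 (1226 ± 102), Lhx6 (1144 ± 91.2), Runx2 (1074.5 ± 144), Osr2 (928.5 ± 144), and Msx2 (105.1 ± 16.6). At this stage Prrx1 and Pax9, Pax9 and Lhx8, and Osr2 and Msx2 did not overlap either.

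At E16 Barx1 was first (2729 ± 819 per kilobase), followed by Msx1 (1341.5 ± 400.5), Runx2 (1273 ± 191), Twist1 (1082 ± 329), Prrx1 (1036 ± 71.8), Lhx6 (1012 ± 313), Pax9 (1002 ± 182), Osr2 (771 ± 298), Lhx8 (664 ± 59.3), and Msx2 (467 ± 163), and all neighbours overlapped. Among 14564 tested protein coding genes, Msx2 per kilobase was at the 24.3 percentile at E13, the 43.6 percentile at E14, and the 86.9 percentile at E16. The other 9 genes lay between the 92.3 and 99.4 percentiles at all stages. The order depends on the length taken for each gene: with the longest transcript Prrx1 ranked above Barx1 at E13 and E14, and Msx1 above Barx1 at E14, whereas Msx2 remained last at all stages.

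The E15 teeth were in the salmon table only, and were compared within it and without a test, because their processing differs from the count table of the other stages. Any difference of origin between the E15 teeth and the others cannot be told apart from stage. For all 10 genes the mean of 6 E15 teeth was between the means of E13 and E16, with all 7 E16 teeth included. Barx1 had means of 4170 at E13, 3880 at E15, and 3613 at E16, where its lowest tooth was at 1470. For Barx1 the place of E15 between the other stages rests on that tooth. Msx2 had a mean ± SD of 111 ± 15.9 at E13, 552 ± 185.5 at E15, and 1476 ± 492 at E16 in normalized salmon counts. Msx1 had 10004 ± 895, 6851 ± 524, and 3982.5 ± 1060.2, and the E15 teeth (6138 to 7389.9) overlapped neither stage. Lhx8 (1969 ± 455, E13 4214 ± 485, E16 1445 ± 140.4) and Twist1 (1893 ± 51.9, E13 2674 ± 209.8, E16 1661 ± 470.3) were nearer to E16 than to E13. Pax9 at E15 (8262 ± 1378) was nearer to its E13 mean of 8488 than to its E16 mean of 4929. Prrx1 had 18342 ± 3306, against 31653 ± 2383 at E13 and 11008 ± 882 at E16.

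**Figure D4:**
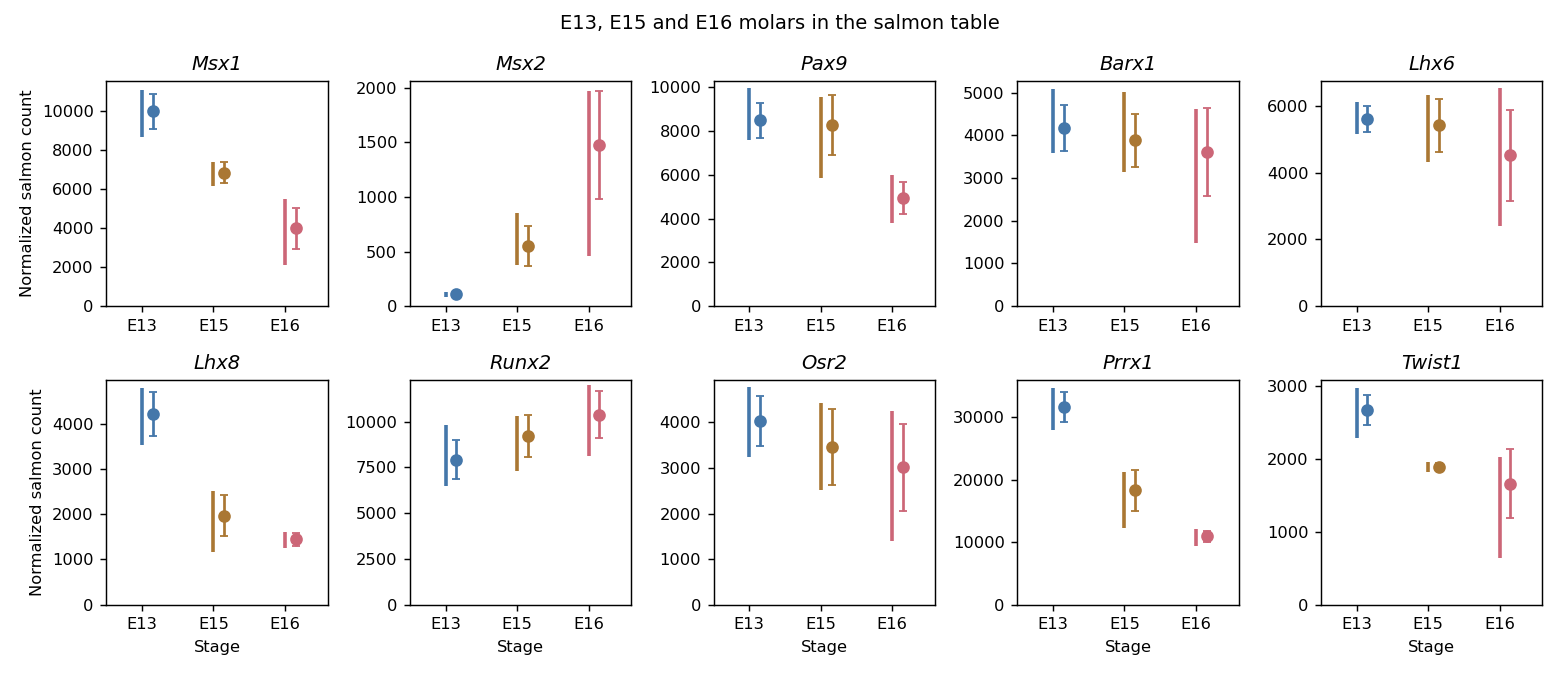
Normalized salmon counts (y axis, linear from 0) of the 10 transcription factors at E13 (7 teeth), E15 (6 teeth), and E16 (7 teeth). Lines span the lowest to the highest tooth, and points with bars are the mean ± SD. In all 10 panels the E15 mean lies between the others, for Pax9 near E13, and for Lhx8 and Twist1 near E16. For Barx1 this rests on the lowest E16 tooth, at 1470.

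Among the E13, E14, and E16 teeth, 3 embryos gave both a left and a right tooth. In the left and right teeth of E16 embryo 8 the median absolute log2 difference of the 10 genes was 0.06, in E16 embryo 6 it was 0.11, and in E14 embryo 6 it was 0.18. The largest of these differences were in Osr2 (0.35 in E16 embryo 8 and 0.39 in E14 embryo 6) and in Lhx8 (0.205 in E16 embryo 6). Between the teeth of a stage, the median coefficient of variation of the 10 genes was 10.9% for E13, 8.64% for E14, and 29.9% for E16, or 11.7% without the deviating tooth. Over 5242 genes with a mean of at least 1000 normalized counts it was 6.75%, 8.27%, and 16.3%, and at E16 8.14% without that tooth.

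Of 45 related transcription factors (paralogs, partners, and other factors of jaw mesenchyme), 44 were tested, and Hand1 was at 0 in every library. From E13 to E14, 10 rose and 8 fell, where 11.3% of all tested genes rose and 8.47% fell. From E14 to E16, 12 rose and 13 fell, against 15% and 13.1% of all tested genes, and from E13 to E16, 14 rose and 17 fell, against 21.6% and 19.6%. The 3 comparisons had median log2 changes of −0.05, −0.19, and −0.01. From E13 to E14, the largest rises were in Lmo1, an LIM-only protein that can bind the partners of LIM homeodomain factors (1.48 ± 0.23, adjusted p = 3.67e-05), Dlx2 (1.32 ± 0.24, adjusted p = 0.000299), Snai1 (1.02 ± 0.25, adjusted p = 0.00508), and Prrx2 (1.02 ± 0.15, adjusted p = 1.85e-05). Prrx2 was thus higher at E14 while its paralog Prrx1 was lower, and at E16 it was back at 1119 normalized counts from 2444 at E14 and 1202 at E13. The largest falls were in Hand2, which marks the distal jaw (−3.54 ± 0.89, adjusted p = 0.00628), Alx4 (−2.14 ± 0.26, adjusted p = 2.13e-06), Pax1, the paralog of Pax9 (−0.93 ± 0.33, adjusted p = 0.0487), and Osr1, the paralog of Osr2 (−0.67 ± 0.23, adjusted p = 0.0411). Hand2 went from a mean ± SD of 66.8 ± 78.4 at E13 to 5.62 ± 5.73 at E14, and the teeth of these stages overlapped.

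From E14 to E16, Lmo1 rose further (2.53 ± 0.20, adjusted p = 8.9e-10), as did Runx3 (1.43 ± 0.16, adjusted p = 1.53e-07), Lmo3 (1.24 ± 0.24, adjusted p = 0.000318), and Barx2 (1.09 ± 0.19, adjusted p = 9.36e-05). Runx3 and Barx2 are paralogs of Runx2 and Barx1, and they reached means of 696.5 and 335 normalized counts at E16. The largest falls were in Gsc (−2.10 ± 0.14, adjusted p = 5.16e-11), Osr1 (−1.39 ± 0.23, adjusted p = 5.88e-05), Eya1 (−1.25 ± 0.09, adjusted p = 8.25e-11), and Tfap2b (−1.16 ± 0.13, adjusted p = 2.12e-07). Osr1 fell at both steps to 714 normalized counts at E16, whereas Osr2 passed the test at neither.

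Of 12 genes that are commonly placed downstream of these factors in the mesenchyme, 5 rose and none fell from E13 to E14, where 19.7% of all tested genes passed the test. From E14 to E16 4 rose and 4 fell, against 28.1% of all tested genes in either direction, and from E13 to E16 6 rose and 2 fell, against 41.3%. Fgf3, a growth factor whose mesenchymal transcription depends on Msx1 and Runx2, had a mean of only 6.01 normalized counts at E13. It rose by 6.45 ± 0.39 to 513 at E14 (adjusted p = 1.69e-11), where Msx1 and Runx2 had not passed the test. Fgf3 then fell by 0.94 ± 0.26 on the log2 scale (adjusted p = 0.00819). Whole teeth do not show in which tissue layer a gene of this list changed. Inhba, which encodes the activin subunit of the bud mesenchyme, was 1.11 ± 0.10 higher at E14 (adjusted p = 8.1e-09), and Dlx2 belongs to this list as well. Sfrp2, a secreted Wnt antagonist, fell by 1.93 ± 0.20 on the log2 scale from E14 to E16 (adjusted p = 6.63e-08), in the interval in which Msx1 and Pax9 fell. Ptch1, the Hedgehog receptor and target, was 1.55 ± 0.11 higher at E16 than at E13 (adjusted p = 3.45e-11).

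The genes most like each of the 10 over the 21 teeth were found by the root mean square difference of log2 levels, each centred on its mean, among 12799 other genes with a mean of at least 100 normalized counts. Nearest to Msx1 were Col26a1 (0.19) and Frzb (0.20), to Pax9 Lrrc75a (0.13) and Boc (0.14), and to Lhx8 Has2 (0.18) and Gpc6 (0.19). Nearest to Prrx1 were Hs6st2 (0.14) and Eya4 (0.15), and to Msx2 Ahnak2 (0.39) and Kcnj8 (0.40). For Barx1 these were Phf23 and Csnk1g2, for Lhx6 Mvk and Drap1, for Runx2 Dlc1 and Gmppa, for Osr2 Vegfb and Basp1, and for Twist1 Dbn1 and Cand2. The deviating tooth weighs on this list: over the other 20 teeth, 4 of the 20 names were the same, namely Frzb, Ahnak2, Phf23, and Csnk1g2. The gene nearest to Osr2 was then Lhx6 (0.14), and those nearest to Prrx1 were Gm26523 (0.09) and Gm37644 (0.12) within its own introns.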

How the data were processed

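Individual tooth germs were sequenced by the authors on an Illumina NextSeq platform, and the reads were filtered (FastQC, AfterQC, Trimmomatic) and aligned with STAR to GRCm38. The deposited counts per gene were made by the authors with HTSeq and are whole numbers without normalization, and the strand setting is not given in the sources used here. A second deposited table holds whole numbers of estimated counts from salmon for 14185 genes. Gene names, coordinates, overlaps, and merged exon lengths were taken from GENCODE vM21 (GRCm38), in which 147 of the 52636 identifiers are absent, and upstream sequences from RefSeq for 9 of the 10 genes.

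Stage, embryo, and side came from the sample labels. For 1 E13 column the embryo is written as X, and it was used as an E13 tooth without an embryo number. No pair of teeth of a stage agreed within counting error (smallest chi-square per degree of freedom 7.21), so that none was counted as a duplicate. Where teeth share an embryo, p values measure in part the spread within it. All stages were fitted together in edgeR 4.0.16 (R 4.3.3) and compared by its quasi-likelihood test, with TMM normalization, the filterByExpr filter, and a factor for stage. Benjamini-Hochberg adjustment was over 19101 genes, and the threshold was 0.05. The biological coefficient of variation of the fit was 21.15%, so that at these depths the spread between teeth and not counting error limits the precision. The fit and the permutation test were checked on simulated data. Levels are counts divided by DESeq2 size factors (version 1.42.0), and ratios were taken with 0.5 added to both normalized counts. The genes, the gene lists, and the 5 pairs were chosen with earlier results of these data known. Named besides the 10 genes were, by rule, up to 4 called related factors with the largest rise and fall at each step, all called downstream genes with a log2 change above 1, the 2 nearest genes in likeness, and overlapping genes. Alternatives were other normalizations, filters, tests, and sets of teeth. The array, rat, and single-cell data of the study were not used here. Of the dental epithelium markers, 1 gene was left out and is not reported here.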

Additional observations from a re-analysis of the deposited data

Results flagged for a closer look

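In groups of 7 teeth, a tooth was singled out where its gap to the nearest of the others exceeded 0.568 of the range of the group (Dixon's test). Of 45 groups of counts or ratios tested, 6 had such a tooth, where chance alone gives about 1 in 20.

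The left tooth of embryo 3 at E16 accounted for 4 of the 6. It had 422.2 normalized counts of Msx2 against a median of 1650.8 over the 7 E16 teeth, 1412.4 of Barx1 against 3860.0, and 608.3 of Twist1 against 1848.5. Its log2 ratio of Runx2 to Twist1 was 3.7258 against a median of 2.597. In the same library Lhx8 and Prrx1, at 1782 and 11273 normalized counts, were within the range of the other E16 teeth.

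At E14, the left tooth of embryo 6 had 6454.5 normalized counts of Lhx6 against a median of 5285, and the right tooth of the same embryo had 5455. The right tooth of embryo 3 at E14 had a log2 ratio of Msx1 to Pax9 of -0.2443 against a median of 0.1069.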

How the results depend on the processing

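The number of the 10 genes called stayed between 3 and 6 from E13 to E14, between 5 and 7 from E14 to E16, and between 7 and 8 from E13 to E16 over the alternatives other than the replicate block described last, and all ratio results kept their direction and their side of the threshold. Over single genes, 2 small differences turned direction when the libraries were scaled to the pan-mesenchyme markers, Lhx6 (0.0568) and Twist1 (0.0045) from E14 to E16, also with the left tooth of embryo 3 at E16 left out (0.0147 and 0.0455, chosen after seeing the data). In the latter fit Lhx6 from E13 to E16 passed the test (adjusted p = 0.0319) and Barx1 from E14 to E16 did not (adjusted p = 0.0611). The difference of Pax9 from E13 to E14 ranged from -0.0506 to 0.0228 on leaving out single teeth, and was above 0 without the left tooth of embryo 2 at E13. The call of Barx1 from E14 to E16 was lost in 6 of the alternatives with all teeth and no block, with adjusted p from 0.0523 to 0.0885. That of Twist1 from E13 to E14 was lost in 3 fits without a single tooth (the right teeth of embryos 3 and 6 at E14, and the left tooth of embryo 2 at E13; adjusted p from 0.0558 to 0.0582). Lhx6 from E13 to E16 passed the test with DESeq2 (adjusted p = 0.0482) and with the teeth of an embryo summed (adjusted p = 0.031). Barx1 and Lhx6 from E13 to E14 passed it when only these stages were fitted (adjusted p = 0.0158 and 0.038), and Runx2 from E14 to E16 without the left tooth of embryo 8 at E14 (adjusted p = 0.0397). Over all genes, scaling to the pan-mesenchyme markers called 1762 from E13 to E14 against 3767. The levels per kilobase moved by more than their SD in 22 of 60 alternatives, and those with the longest transcript changed the order. The nearest gene in likeness changed for 8 of the 10 without the left tooth of embryo 3 at E16, an alternative chosen after seeing the data. The cause of these differences was not tested. Embryo numbers recur between stages although the embryos differ. Of 15 pairs of teeth of different stages with the same number, the correlation of deviations from the stage means exceeded 0.1 in 3 (median 0.03). Of 132 pairs with different numbers, it exceeded 0.1 in 8 (median -0.0008). Whether teeth with the same number share more than the number was not tested. With the embryo number as a replicate block, an alternative added after seeing the data, the genes called numbered 2 from E13 to E14 (without Prrx1 and Twist1, adjusted p = 0.127 and 0.0712), 5 from E14 to E16 (without Barx1), and 7 from E13 to E16 (with Lhx6, adjusted p = 0.0279, and without Runx2, adjusted p = 0.293). The uncalled difference of Runx2 from E13 to E14 then was -0.0068. Over all genes this block called 1677, 4843, and 5210 in the 3 comparisons, against 3767, 5370, and 7887. The block adds a term for each number and so leaves fewer degrees of freedom for the spread. Teeth with a number that no other tooth has (9 and X, both at E13) add nothing to a comparison. How far this limits the calls was not tested.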
